A study of Felis catus with 25 samples.

Results

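The effect of adding GW9662 to troglitazone was read from 10 of the 25 poly(A) RNA libraries of a study on cat (Felis catus) corneal fibroblasts grown in culture. The 10 libraries were taken by their labels as the day 5 cultures that received troglitazone with GW9662 (TrogGW, n = 5) and the day 5 cultures that received troglitazone without it (Trog, n = 5). Cells of both groups had been exposed to transforming growth factor beta 1 (TGFb1) at 1 ng/ml for 2 days, the TGFb1 was then taken away, and the drugs were given for 3 days. Troglitazone was at 7.5 uM in both groups and GW9662 at 10 uM in TrogGW only. Levels in cells at the end of the TGFb1 exposure on day 2 (TGFb, n = 5) and in untreated cells on day 0 (FB, n = 5) are given beside some genes as a description. A day 5 group with GW9662 alone, or with neither drug, was not analysed here, so the comparison is between troglitazone with and without GW9662. The 5 libraries of a group are biological replicates by their labels, which do not say whether they came from separate cultures or donors. The p-values set the difference between groups against the spread between these libraries.

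Troglitazone is a thiazolidinedione, a class of ligands that bind and activate the nuclear receptor PPAR-gamma (the PPARG gene). PPAR-gamma pairs with a retinoid X receptor on DNA and, when bound by an agonist, recruits coactivators such as those of the PGC-1 family to genes of fatty acid uptake, storage and use. GW9662 is an antagonist that reacts with a cysteine in the ligand pocket of PPAR-gamma and blocks binding of agonists, and it also reaches the related receptors PPAR-alpha and PPAR-delta at higher doses. In the cornea, stromal fibroblasts turn into myofibroblasts under TGFb1, with contractile fibres of alpha smooth muscle actin and a heavy output of collagen and fibronectin, and PPAR-gamma agonists are studied as a means to oppose this.

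The 10 libraries held 17.6 to 20.9 M counts in TrogGW and 18.2 to 22.6 M in Trog. A count was found for 12054 ± 41.5 genes per library in TrogGW and 11581 ± 52.8 in Trog (SD, n = 5 each; 2-sided exact permutation test, p = 0.00794, the smallest this design allows). The share of counts taken by the 10 highest genes was 8.56% ± 0.452 in TrogGW and 10.9% ± 0.335 in Trog (exact permutation p = 0.00794). TrogGW replicate 1 stood apart from its group, at -32.5 on the first principal component of log2 CPM, against -49.4 to -45.5 for the other TrogGW libraries and 42.8 to 46.3 for the Trog libraries. It had the highest TrogGW levels of ACTA2, FN1 and COL1A1, and values without it are given where the fold moved by over 1.5 times or a call changed. Of the markers of stromal fibroblasts, 10 of 12 had enough counts to test, of which 1 rose and 8 fell, 6 of them at least 2-fold (median log2FC -1.27). Their sums were 9011 to 23116 CPM in TrogGW, against 31908 to 38798 CPM in Trog, and FN1 made up most of each sum. Of the 10 listed markers of corneal epithelium 6 were analysed, of which KRT3, KRT12, TP63 and DSG1 were at 0 in all 10 libraries, PAX6 rose (2.63 against 0.591 CPM, log2FC 2.15 ± 0.27) and EPCAM did not pass the threshold (3.10 against 2.22 CPM, log2FC 0.48 ± 0.22). Without TrogGW replicate 1 EPCAM passed it (log2FC 0.63, edgeR adjusted p = 0.00528). Of the 14 of immune cells 12 were analysed, of which PTPRC, LYZ, AIF1, TYROBP, MS4A1 and CD163 were at 0 in all 10 libraries. Others of that list had counts, and of the 4 tested 1 rose and 3 fell, none by 2-fold (median log2FC -0.37). The summed markers of corneal endothelium, some of which fibroblasts also express, came to 2105 to 2236 CPM in TrogGW, against 2248 to 2453 CPM in Trog, and those of vascular endothelium to 154 to 180.4 CPM in TrogGW, against 203 to 234 CPM in Trog. Single markers of vascular endothelium mostly went against its sum: of 5 tested, 3 rose, each at least 2-fold, and 1 fell (median log2FC 1.04). For corneal endothelium 3 of 8 tested rose and 5 fell. The sums were 45.7 to 51.6 CPM in TrogGW, against 48.3 to 59.4 CPM in Trog for immune cells, 13.1 to 16.2 CPM in TrogGW, against 18.2 to 24.4 CPM in Trog for melanocytes and Schwann cells, and 3.70 to 6.83 CPM in TrogGW, against 2.32 to 3.86 CPM in Trog for corneal epithelium. In bulk RNA, fewer cells of a type and less RNA per cell cannot be told apart.

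In the fit of these 10 libraries, adding GW9662 went with a change in most genes tested. Of 10423 genes with enough counts to test, 7312 (70.2%) differed between TrogGW and Trog at an adjusted p under 0.05 in edgeR's quasi-likelihood test, which is the threshold behind every "rose" and "fell" in the text. Of all genes tested, 3724 (35.7%) rose and 3588 (34.4%) fell, and the median log2 fold change, TrogGW over Trog, was 0.01. Most changes were small, with a median absolute log2 fold change of 0.34. A test against a 1.5-fold change called 2071 of the 10423 genes, and a fit of all 25 libraries with a shared spread called 4620 of 10699. A change of at least 2-fold was called for 985 genes that rose (9.45%) and 527 that fell (5.06%), and one of at least 16-fold for 84 genes that rose and 8 that fell. The 5 TrogGW values all lay above the 5 Trog values for 2912 genes (27.9%) and all below for 2820 genes (27.1%). The split depends on scaling: 50.9% of the calls were higher in TrogGW as fitted, and 68.2% (5092 rose, 2374 fell) when libraries were scaled by their totals alone, which shifted the median log2 fold change by 0.16. Levels are given as CPM (counts per M counts of the scaled library), means carry SDs over 5 libraries, and log2 fold changes (log2FC, TrogGW over Trog) carry standard errors (SE). Where scaling by library totals, or a fit of all 25 libraries with a shared spread, moved a list's counts by over 1.5 times or turned which was larger, the members that rose and fell under it follow in brackets ("with totals" or "with all 25"). In brackets, a first CPM is the mean of TrogGW and a second, after "against", the mean of Trog. Each list's counts are to be read beside the 35.7% of all genes tested that rose and the 34.4% that fell.

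**Figure D1:**
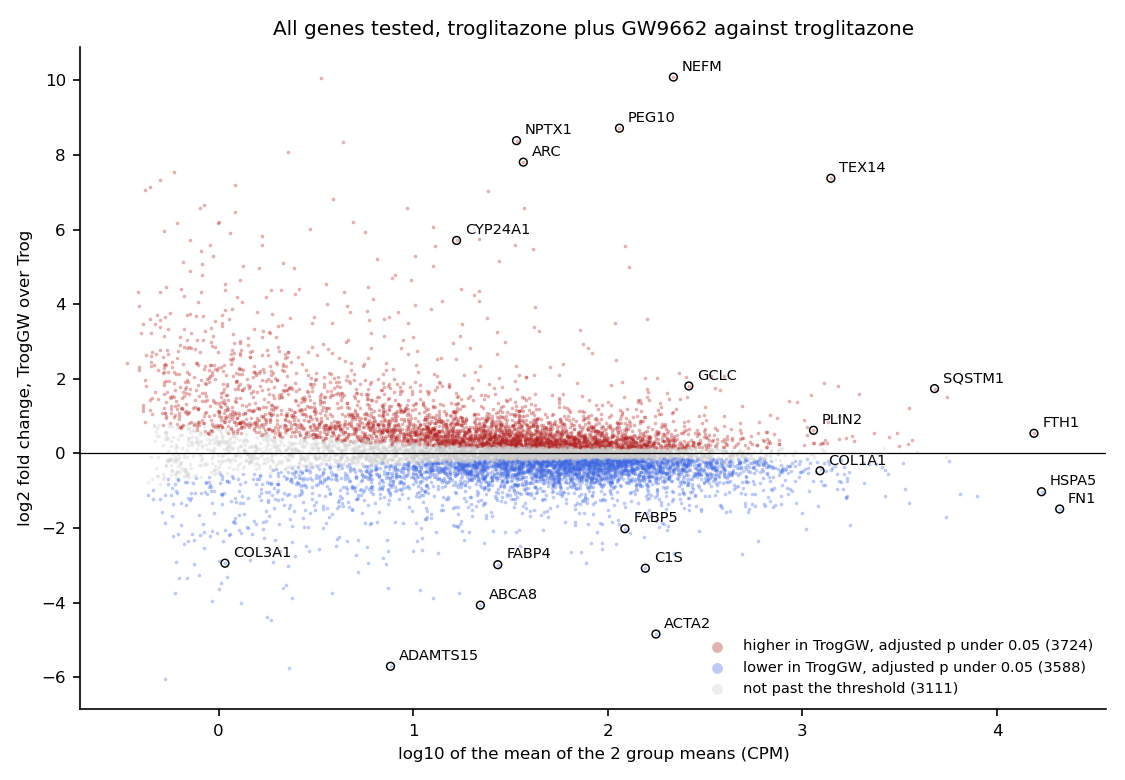
Each point is 1 of the 10423 genes tested, placed by the log10 of its mean level in CPM (horizontal axis) and by its log2 fold change of TrogGW over Trog (vertical axis), with genes that rose in red, genes that fell in blue and the others in grey. The largest rises, up to 10.09 for NEFM, exceeded the largest falls of named genes, -5.71 for ADAMTS15 and -4.85 for ACTA2, and the labelled genes furthest to the right that fell were FN1 and HSPA5.

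Several classical targets of PPAR-gamma fell with GW9662. FABP4, the fatty acid carrier of adipocytes and the best known target of the receptor, had 5.84, 5.59, 8.39, 4.65 and 6.13 CPM in the 5 TrogGW libraries, against 59.0, 42.0, 49.3, 49.5 and 41.8 CPM in the 5 Trog libraries. The groups did not overlap, and the difference gave a log2FC of -2.99 ± 0.13 (SE; edgeR, adjusted p = 1.18e-10), that is 7.92-fold lower in TrogGW. No TGFb or FB library had a FABP4 count, so the TrogGW level, while low, lay above those of both earlier groups. FABP5, a related carrier, had 44.8, 54.7, 49.0, 45.1 and 48.5 CPM in the 5 TrogGW libraries, against 221, 186, 192, 192 and 191 CPM in the 5 Trog libraries. Its log2FC of -2.02 ± 0.07 (SE; edgeR, adjusted p = 4.97e-12) was of the same direction, and the TrogGW values again lay between those of Trog and the 3.25 CPM in TGFb and 7.87 CPM in FB. FABP4 and FABP5 are close paralogs, so that reads common to both could be split between them. LPL, the lipase that frees fatty acids from lipoproteins, had 7.28 ± 1.75 CPM in TrogGW and 38.7 ± 1.75 CPM in Trog (log2 fold change -2.41 ± 0.12), and its level was 110.4 CPM in TGFb and 20.5 CPM in FB. MGLL, which splits the last fatty acid from glycerol, had 11.2 ± 3.41 CPM in TrogGW and 48.2 ± 4.5001 CPM in Trog (log2 fold change -2.11 ± 0.15). ANGPTL4, a secreted inhibitor of LPL and a target of all 3 PPARs, had 18.7, 30.9, 33.0, 30.9 and 26.9 CPM in the 5 TrogGW libraries, against 57.1, 69.8, 84.4, 61.7 and 52.4 CPM in the 5 Trog libraries. Its groups were apart as well, with a log2FC of -1.21 ± 0.14 (SE; edgeR, adjusted p = 2.41e-06).

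Other members of the list of PPAR-gamma targets and lipid droplet genes did not follow. PDK4, the kinase that shuts the pyruvate dehydrogenase complex and a common PPAR target, had 5.11, 4.51, 3.79, 4.61 and 5.59 CPM in the 5 TrogGW libraries, against 4.55, 3.85, 6.03, 4.73 and 6.21 CPM in the 5 Trog libraries. These ranges overlapped, and the log2FC of -0.10 ± 0.15 (SE; edgeR, adjusted p = 0.564) did not pass the threshold, while TGFb and FB were near the detection limit with 0.0189 CPM in TGFb and 0.0551 CPM in FB. PLIN2, which coats lipid droplets, rose, with 1380.2 ± 127 CPM in TrogGW and 899.5 ± 40.6 CPM in Trog (log2FC 0.62 ± 0.07, edgeR adjusted p = 1.71e-06). NR1H3, the oxysterol receptor LXR-alpha, also rose (13.6 against 6.07 CPM, log2FC 1.16 ± 0.11). Of the 24 members tested, 6 rose and 12 fell (median log2FC -0.29), against 35.7% and 34.4% of all genes that rose and fell. Of these, 4 rose and 8 fell at least 2-fold. The markers of adipocytes, a list that holds FABP4, summed to 18.0 to 24.003 CPM in TrogGW, against 54.4 to 73.5 CPM in Trog. Of the 4 members tested, 2 rose, each at least 2-fold, and 1, FABP4, fell (median log2FC 0.39). FABP4 averaged 6.12 CPM in TrogGW and 48.3 CPM in Trog, beside mean sums of 20.6 and 62.9 CPM. Of that list, ADRB3 was at 0 in all 10 libraries and ADIPOQ, the adiponectin gene, had 1 count in TrogGW and 0 in Trog.

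**Figure D2:**
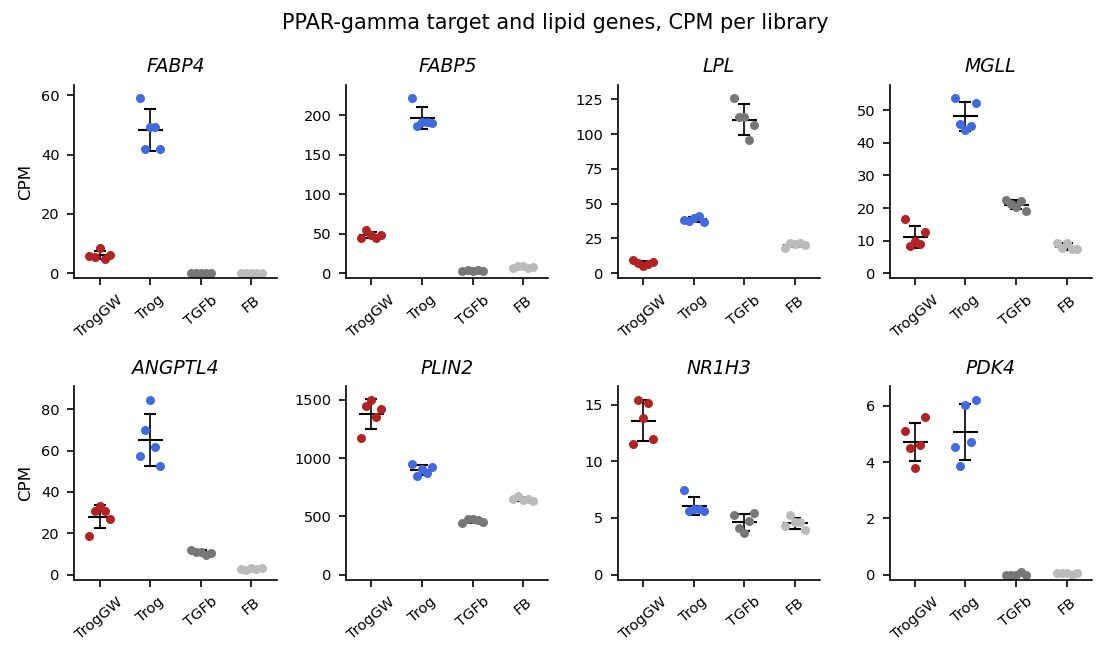
Levels in CPM (vertical axes) of 8 PPAR-gamma target and lipid genes in the libraries of TrogGW, Trog, TGFb and FB, each point a library, with the mean as a bar and the SD as whiskers (n = 5 each). FABP4, FABP5, LPL, MGLL and ANGPTL4 were lower in every TrogGW library than in every Trog library, PLIN2 and NR1H3 were higher, and PDK4 overlapped.

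Of the receptors themselves, PPARG was at 0 in Trog and low in TrogGW, and the others were measured at low to moderate levels. PPARG had 6, 28, 10, 9 and 12 counts in the 5 TrogGW libraries, against 0, 0, 0, 0 and 0 counts in the 5 Trog libraries. These 65 counts against 0 were too few to test; set against the floor of 3 counts over the group, the level was at least 20.4-fold higher in TrogGW (0.631 CPM over the group, against a floor of 0.031 CPM). CD36, a fatty acid receptor and PPAR-gamma target, was also too low to test, with 36 counts in TrogGW and 1 count in Trog, a ratio of 33.8 (95% counting interval 5.7 to 1373). PPARA, the receptor that drives fatty acid oxidation in liver, had 9.64 ± 1.02 CPM in TrogGW and 8.92 ± 1.88 CPM in Trog and did not pass the threshold (log2FC 0.11 ± 0.13, edgeR adjusted p = 0.461). PPARD fell slightly, with 63.3 ± 2.78 CPM in TrogGW and 79.3 ± 3.81 CPM in Trog (log2FC -0.33 ± 0.05, edgeR adjusted p = 3.1e-05), and this call was lost when all 25 libraries shared 1 estimate of the spread. RXRA, the partner receptor, had 83.7 ± 5.47 CPM in TrogGW and 82.3 ± 5.33 CPM in Trog and did not pass the threshold (log2FC 0.02 ± 0.06, edgeR adjusted p = 0.743), and with library totals alone it rose, at a log2FC of 0.18 (edgeR adjusted p = 0.0081). PPARGC1B, the PGC-1 beta coactivator, fell (2.58 against 9.48 CPM, log2FC -1.88 ± 0.14), with 2.36 CPM in TGFb and 3.60 CPM in FB. Among the nuclear receptors and coregulators, 12 of 29 tested members rose and 5 fell (median log2FC 0.09; 8 and 2 with all 25). Those that rose included NR4A2, an orphan receptor induced by many stimuli (44.1 against 16.6 CPM, log2FC 1.41 ± 0.10), NCOA3, a steroid receptor coactivator (248 against 148 CPM, log2FC 0.75 ± 0.06, not called with all 25 libraries), and THRB, a thyroid hormone receptor (17.5 against 10.8 CPM, log2FC 0.70 ± 0.08, not called with all 25 libraries). VDR, the vitamin D receptor, fell (31.6 against 43.9 CPM, log2FC -0.48 ± 0.06, not called with all 25 libraries).

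Genes of sterol synthesis were mostly lower with GW9662, and those of fatty acid oxidation fell more often than they rose. In fatty acid oxidation, 4 of 27 tested members rose and 17 fell (median log2FC -0.25; 7 and 12 with totals, 2 and 12 with all 25). Among the lowest p-values were those of ACSL5, which activates long-chain fatty acids (5.01 against 14.7 CPM, log2FC -1.55 ± 0.10), ACADL, the long-chain acyl-CoA dehydrogenase (17.5 against 39.4 CPM, log2FC -1.17 ± 0.09), and ECI1, which moves double bonds of unsaturated acids (47.0 against 75.5 CPM, log2FC -0.68 ± 0.06). ACADM, the medium-chain dehydrogenase, went the other way (85.2 against 65.9 CPM, log2FC 0.37 ± 0.06), as did the fatty acid transporter SLC27A4 (33.9 against 26.6 CPM, log2FC 0.35 ± 0.08, groups overlapping). Nearly the whole cholesterol list was lower: 1 of 23 tested members rose and 20 fell (median log2FC -0.71; 3 and 16 with totals). INSIG1, which holds the sterol sensor in the endoplasmic reticulum, had 52.5, 79.8, 81.9, 47.2 and 69.6 CPM in the 5 TrogGW libraries, against 180.2, 197, 177, 190.5 and 155 CPM in the 5 Trog libraries. Every TrogGW value was below every Trog value, with a log2FC of -1.44 ± 0.13 (SE; edgeR, adjusted p = 1.42e-07). HMGCS1, the synthase that feeds the pathway (73.5 against 115 CPM, log2FC -0.65 ± 0.05), MSMO1, a sterol demethylase (36.4 against 85.8 CPM, log2FC -1.24 ± 0.10), and FDFT1, squalene synthase (46.0 against 79.4 CPM, log2FC -0.79 ± 0.08), fell too. The exception was ACAT2, a cytosolic thiolase, which rose (32.1 against 16.3 CPM, log2FC 0.98 ± 0.09). For fatty acid and triglyceride synthesis the list was divided, and 7 of 22 tested members rose and 10 fell (median log2FC -0.02; 3 and 7 with all 25). ACSS2, which makes acetyl-CoA from acetate (91.2 against 182 CPM, log2FC -0.998 ± 0.07), LPIN1, a phosphatidate phosphatase (85.2 against 139 CPM, log2FC -0.70 ± 0.06), FADS2, a fatty acid desaturase (28.3 against 58.2 CPM, log2FC -1.04 ± 0.09), and the elongase ELOVL5 (45.1 against 67.4 CPM, log2FC -0.58 ± 0.06, not called with all 25 libraries) fell. FADS3 (155 against 77.3 CPM, log2FC 1.005 ± 0.10) and the acyltransferase AGPAT3 (6.52 against 3.31 CPM, log2FC 0.98 ± 0.11) rose.

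The myofibroblast genes were lower in TrogGW than in Trog. ACTA2, alpha smooth muscle actin and the defining marker of myofibroblasts, had 37.5, 7.42, 2.22, 2.77 and 9.73 CPM in the 5 TrogGW libraries, against 268, 399, 475, 316 and 250.1 CPM in the 5 Trog libraries. The highest TrogGW value, in replicate 1, was still below the lowest Trog value. The log2FC of -4.85 ± 0.53 (SE; edgeR, adjusted p = 1.13e-06) moved to -5.97 (adjusted p 1.34e-10) when TrogGW replicate 1 was left out. For scale, ACTA2 averaged 11405 ± 541 CPM in TGFb and 2461 ± 185 CPM in FB, so that Trog lay below untreated cells and TrogGW lower still. Reads of ACTA2 could be shared with the near-identical gamma actin genes. LMOD1, which nucleates actin filaments in smooth muscle, had 1.13 ± 0.654 CPM in TrogGW and 13.7 ± 4.40 CPM in Trog (log2FC -3.60 ± 0.29, edgeR adjusted p = 5.05e-08). MYLK, the myosin light chain kinase, had 26.1 ± 9.65 CPM in TrogGW and 139 ± 13.2 CPM in Trog (log2FC -2.41 ± 0.17, edgeR adjusted p = 1.16e-08). MYH10, a nonmuscle myosin heavy chain (331 against 601 CPM, log2FC -0.86 ± 0.07), and CDH2, N-cadherin (136 against 342 CPM, log2FC -1.33 ± 0.09), also fell. DES, the muscle intermediate filament desmin (2.51 against 0.379 CPM, log2FC 2.73 ± 0.28), and SGCD, a sarcoglycan (31.4 against 16.8 CPM, log2FC 0.90 ± 0.08), rose. Of the 26 members tested, 3 rose and 17 fell (median log2FC -0.58), and 1 rose and 11 fell at least 2-fold.

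Matrix genes fell broadly. FN1, fibronectin, had 19052, 9395, 7804, 7151 and 11604 CPM in the 5 TrogGW libraries, against 31127, 26941, 30019.9, 33639 and 33038 CPM in the 5 Trog libraries. It was lower in every TrogGW library, with a log2FC of -1.49 ± 0.21 (SE; edgeR, adjusted p = 1.72e-05), and replicate 1 was the highest of its group. COL1A1, the main chain of fibrillar collagen I, had 1703, 864, 746, 745 and 1112 CPM in the 5 TrogGW libraries, against 979.8, 1278, 1922, 1469 and 1499.9 CPM in the 5 Trog libraries. The ranges overlapped and the difference missed the threshold (log2FC -0.47 ± 0.21, edgeR adjusted p = 0.0621); without TrogGW replicate 1 it passed (log2 fold change -0.72, edgeR adjusted p = 0.000614). Both day 5 groups were far below the 77761 CPM in TGFb and 55320.0 CPM in FB. COL3A1, the chain of collagen III, was near the lower limit of testing, with 0.248 ± 0.241 CPM in TrogGW and 1.91 ± 0.830 CPM in Trog (log2FC -2.95 ± 0.52, edgeR adjusted p = 0.000116), against 304 CPM in TGFb and 352 CPM in FB; its log2 fold change was -3.55 without TrogGW replicate 1. Of the 20 members tested, 2 rose and 17 fell (median log2FC -0.98). COL6A3 of the beaded collagen VI filaments (1646 against 3641 CPM, log2FC -1.15 ± 0.14), COL16A1 (8.30 against 25.5 CPM, log2FC -1.62 ± 0.12) and COL4A5 of basement membranes (37.4 against 98.2 CPM, log2FC -1.40 ± 0.16) fell, COL8A1 fell at a very low level (0.223 against 0.832 CPM, log2FC -1.88 ± 0.27), and COL24A1 (1.27 against 0.176 CPM, log2FC 2.81 ± 0.34) and COL5A3 (47.3 against 27.0 CPM, log2FC 0.81 ± 0.20, groups overlapping) rose.

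**Figure D3:**
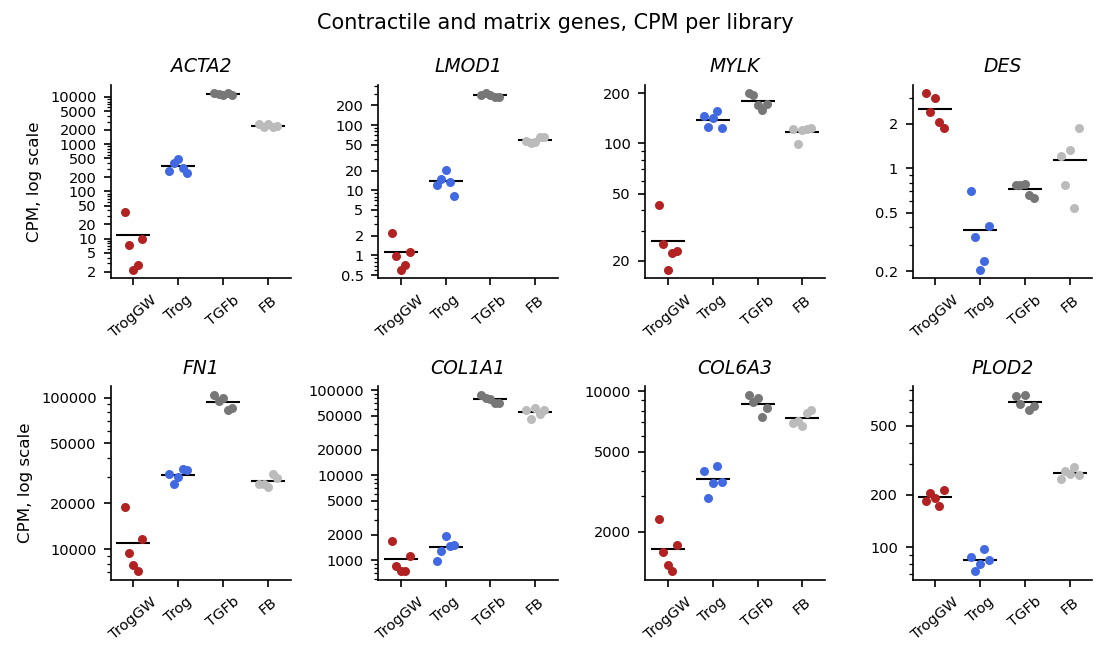
Levels in CPM on log axes (vertical) of 8 contractile and matrix genes, each point a library of TrogGW, Trog, TGFb or FB and each bar a group mean (n = 5 each). ACTA2, LMOD1, MYLK, FN1 and COL6A3 were lower in all TrogGW than in all Trog libraries, COL1A1 overlapped, and DES and PLOD2 were higher; the highest TrogGW point of ACTA2, FN1 and COL1A1 is replicate 1.

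Among the enzymes that fold and crosslink collagen, 4 of 30 tested members rose and 22 fell (median log2FC -0.66). SERPINH1, the collagen chaperone HSP47, had 265 ± 59.5 CPM in TrogGW and 783 ± 58.9 CPM in Trog (log2FC -1.56 ± 0.12, edgeR adjusted p = 2.46e-08), against 3494 CPM in TGFb and 3228 CPM in FB. CRTAP, of the prolyl 3-hydroxylation complex (91.5 against 147 CPM, log2FC -0.68 ± 0.05), COLGALT1, a collagen galactosyltransferase (76.1 against 140.4 CPM, log2FC -0.88 ± 0.07), and FKBP9, a prolyl isomerase (326 against 690.2 CPM, log2FC -1.08 ± 0.10), fell. PLOD2, the lysyl hydroxylase of collagen telopeptides, rose in every library, with 194 ± 16.2 CPM in TrogGW and 84.7 ± 9.37 CPM in Trog (log2FC 1.19 ± 0.08, edgeR adjusted p = 4.31e-09), and ADAMTS3, a procollagen N-proteinase, rose too (21.9 against 9.93 CPM, log2FC 1.15 ± 0.09). In the list of matricellular and elastic fibre genes, 3 of 34 tested members rose and 23 fell (median log2FC -0.96; 6 and 23 with totals). FBLN1, fibulin-1 (29.6 against 156 CPM, log2FC -2.40 ± 0.17), the proteoglycan VCAN (279 against 779.8 CPM, log2FC -1.48 ± 0.12), MFAP2 of microfibrils (1.53 against 5.62 CPM, log2FC -1.87 ± 0.15) and LTBP2 (81.6 against 206 CPM, log2FC -1.34 ± 0.11) fell. CCN3, the matricellular protein NOV, rose (32.5 against 2.92 CPM, log2FC 3.48 ± 0.23), as did LTBP1, which tethers latent TGF-beta to the matrix (219 against 146 CPM, log2FC 0.59 ± 0.08). Keratocyte and stromal proteoglycan genes were divided, since 8 of 19 tested members rose and 10 fell (median log2FC -0.15). DCN, decorin, had 277 ± 42.5 CPM in TrogGW and 733 ± 68.1 CPM in Trog (log2FC -1.40 ± 0.10, edgeR adjusted p = 1.06e-08). PODN, podocan (5.31 against 18.1 CPM, log2FC -1.77 ± 0.12), fell, and so did the membrane transporter SLC4A11 (2.60 against 9.59 CPM, log2FC -1.87 ± 0.13). The PDGF receptors went opposite ways, PDGFRB falling (224 against 489 CPM, log2FC -1.13 ± 0.10) and PDGFRA rising (251 against 112 CPM, log2FC 1.17 ± 0.09), and ANGPTL7 rose (5.18 against 1.15 CPM, log2FC 2.16 ± 0.25).

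Proteases and adhesion receptors were also affected. MMP2, gelatinase A, had 2022 ± 365 CPM in TrogGW and 5064 ± 279 CPM in Trog (log2FC -1.32 ± 0.11, edgeR adjusted p = 7.68e-08). ADAMTS15, which cleaves versican and aggrecan, had 0.438, 0.329, 0.202, 0.176 and 0.269 CPM in the 5 TrogGW libraries, against 13.98, 18.4, 18.4, 15.7 and 8.53 CPM in the 5 Trog libraries. No TrogGW library came near the Trog range, with a log2FC of -5.71 ± 0.28 (SE; edgeR, adjusted p = 3.01e-10). MMP11, stromelysin-3, fell (12.2 against 38.7 CPM, log2FC -1.67 ± 0.10), and the aggrecanases ADAMTS4 (38.3 against 10.5 CPM, log2FC 1.87 ± 0.13) and ADAMTS1 (246 against 119 CPM, log2FC 1.05 ± 0.09) rose, as did ADAM12 (36.2 against 20.1 CPM, log2FC 0.84 ± 0.09). MMP10, stromelysin-2, had 144 counts in TrogGW and 2 counts in Trog, a ratio of 67.6 (95% counting interval 18.4 to 563.9). As fitted, the protease list was balanced, and 9 of 23 tested members rose and 9 fell (median log2FC -0.12). That is 39.1% each way, against 35.7% and 34.4% of all genes tested that rose and fell. The filter on low counts matters here, since 4 members of the list were at 0 in Trog and none in TrogGW. Without that filter 11 of 31 members rose and 9 fell, and the median log2FC was 0.27. Among integrins and focal adhesion genes, 7 of 30 tested members rose and 18 fell (median log2FC -0.34; 11 and 15 with totals, 4 and 14 with all 25). ITGB5, the partner of alpha-v integrin (308 against 792 CPM, log2FC -1.36 ± 0.06), ITGA8 (29.6 against 106 CPM, log2FC -1.83 ± 0.09), ITGA11, a collagen receptor (50.5 against 175 CPM, log2FC -1.80 ± 0.13), and LIMS2 (12.2 against 27.3 CPM, log2FC -1.16 ± 0.07) fell. CAV1, caveolin-1 (123 against 54.4 CPM, log2FC 1.18 ± 0.06), and ITGA6, a laminin receptor (7.47 against 3.17 CPM, log2FC 1.23 ± 0.13), rose.

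Genes of the TGF-beta pathway rose more often than they fell. TGFB1, the ligand itself, had 179.7 ± 16.3 CPM in TrogGW and 91.0 ± 7.01 CPM in Trog (log2FC 0.98 ± 0.07, edgeR adjusted p = 9.97e-09), and 40.9 CPM in TGFb and 58.8 CPM in FB. SMAD7, an inhibitory SMAD induced by the pathway, rose (32.4 against 15.3 CPM, log2FC 1.083 ± 0.08). ID2, an inhibitor of helix-loop-helix factors and a target of BMP signalling, had 69.4, 71.6, 60.7, 71.5 and 123 CPM in the 5 TrogGW libraries, against 4.82, 5.75, 4.89, 6.28 and 3.89 CPM in the 5 Trog libraries. Its values were all higher in TrogGW (log2FC 3.94 ± 0.19, edgeR adjusted p = 2.96e-10). GREM1, a secreted BMP antagonist, rose as well (549.8 against 163 CPM, log2FC 1.75 ± 0.13). The receptors TGFBR2 (446 against 629 CPM, log2FC -0.50 ± 0.06) and TGFBR3 (49.4 against 73.4 CPM, log2FC -0.57 ± 0.06, not called with all 25 libraries) fell. Of the 33 members tested, 18 rose and 11 fell (median log2FC 0.20; 12 and 6 with all 25), and 7 rose and 0 fell at least 2-fold. For YAP and serum response targets, 8 of 26 tested members rose and 11 fell (median log2FC -0.13; 10 and 9 with totals). AMOTL2 (53.9 against 254 CPM, log2FC -2.24 ± 0.16), CRIM1 (160.0 against 446 CPM, log2FC -1.48 ± 0.09), AJUBA (53.9 against 128 CPM, log2FC -1.25 ± 0.07) and the kinase LATS2 (141 against 237 CPM, log2FC -0.75 ± 0.07) fell. The immediate early transcription factors EGR3 (15.6 against 0.548 CPM, log2FC 4.79 ± 0.27) and FOSB (26.7 against 1.54 CPM, log2FC 4.08 ± 0.27) rose.

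Entry of pyruvate into mitochondria was one interest of the study. The subunits of the mitochondrial pyruvate carrier changed little. MPC1 had 27.0 ± 2.34 CPM in TrogGW and 26.4 ± 2.40 CPM in Trog and did not pass the threshold (log2FC 0.03 ± 0.08, edgeR adjusted p = 0.718), and with library totals alone it did, at a log2 fold change of 0.20 (edgeR adjusted p = 0.0353). MPC2 had 40.1, 39.5, 41.7, 38.8 and 42.9 CPM in the 5 TrogGW libraries, against 44.6, 51.3, 54.5, 46.0 and 54.6 CPM in the 5 Trog libraries. Its fall (log2FC -0.31 ± 0.06, edgeR adjusted p = 0.000632) was not called with library totals alone (adjusted p = 0.0698) or with all 25 libraries in the edgeR fit (adjusted p = 0.506). In the list of pyruvate entry and disposal, 6 of 23 tested members rose and 10 fell (median log2FC -0.10; 9 and 5 with totals, 5 and 5 with all 25), none by 2-fold. PDK1 (123 against 207 CPM, log2FC -0.74 ± 0.08), PCK2, the mitochondrial PEP carboxykinase (100.4 against 167 CPM, log2FC -0.73 ± 0.05), GPT2, an alanine aminotransferase (47.3 against 84.5 CPM, log2FC -0.84 ± 0.07), and BSG, the chaperone of lactate transporters (592 against 1143 CPM, log2FC -0.95 ± 0.09), fell. ME2, a mitochondrial malic enzyme (29.99 against 16.9 CPM, log2FC 0.83 ± 0.08), and SLC16A7, a monocarboxylate transporter (47.3 against 30.1 CPM, log2FC 0.65 ± 0.08), rose.

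In glycolysis the enzymes that differed most were higher. TPI1, triosephosphate isomerase, had 1055, 1391, 1613, 1344 and 1385 CPM in the 5 TrogGW libraries, against 486, 534, 497, 565 and 524 CPM in the 5 Trog libraries. The groups were well apart (log2FC 1.38 ± 0.09, edgeR adjusted p = 6.6e-09), both below the 3919 CPM in TGFb and 2934 CPM in FB. ENO3, an enolase (57.1 against 13.2 CPM, log2FC 2.11 ± 0.12), ALDOC, an aldolase (55.2 against 20.5 CPM, log2FC 1.43 ± 0.09), and PFKFB3, which makes the activator of phosphofructokinase (214 against 79.2 CPM, log2FC 1.43 ± 0.09), rose. HK1, a hexokinase (402 against 619 CPM, log2FC -0.62 ± 0.07), and GPI (1288 against 1639.5 CPM, log2FC -0.35 ± 0.05) fell. Of the 19 members tested, 10 rose and 6 fell (median log2FC 0.20; 12 and 3 with totals, 6 and 3 with all 25), with 5 rises and no fall of at least 2-fold. Mitochondrial genes shifted down by small amounts that depend on scaling. In the TCA cycle 2 of 20 tested members rose and 10 fell (median log2FC -0.14; 9 and 7 with totals, 0 and 7 with all 25). IDH1 (189 against 329 CPM, log2FC -0.80 ± 0.07), OGDH (80.8 against 123 CPM, log2FC -0.61 ± 0.05), MDH2 (112 against 155 CPM, log2FC -0.47 ± 0.05, not called with all 25 libraries) and IDH3A (48.6 against 72.1 CPM, log2FC -0.57 ± 0.06), all dehydrogenases of or beside the cycle, had the lowest p-values. Of the nuclear genes of the respiratory chain and ATP synthase, 2 of 31 tested members rose and 18 fell (median log2FC -0.18; 8 and 7 with totals, 0 and 3 with all 25). Without TrogGW replicate 1, 4 TCA cycle genes and 5 of the respiratory chain rose. ATP5MC2, of the ATP synthase ring (155 against 246 CPM, log2FC -0.66 ± 0.06), and NDUFS1 of complex I (91.3 against 124 CPM, log2FC -0.44 ± 0.04) are examples of those that fell. Mitochondrial biogenesis and dynamics gave a similar picture, where 6 of 27 tested members rose and 14 fell (median log2FC -0.18; 9 and 7 with totals, 2 and 8 with all 25). Exceptions were UCP2, an uncoupling protein, which rose at a low level (1.62 against 0.338 CPM, log2FC 2.24 ± 0.22), and POLG, the mitochondrial DNA polymerase (125 against 97.1 CPM, log2FC 0.36 ± 0.06).

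Many chaperones of the endoplasmic reticulum fell, whereas more of those of the cytosol rose than fell. HSPA5, the chaperone BiP, had 15173, 9674, 8529, 12832 and 9432 CPM in the 5 TrogGW libraries, against 20660.2, 24968, 20531, 21194 and 26188 CPM in the 5 Trog libraries. Every TrogGW library was lower, with a log2FC of -1.03 ± 0.15 (SE; edgeR, adjusted p = 1.72e-05), yet above the 1991 CPM in TGFb and 3154 CPM in FB. HSP90B1, the chaperone GRP94, had 4124 ± 571 CPM in TrogGW and 8829 ± 1326 CPM in Trog (log2FC -1.10 ± 0.12, edgeR adjusted p = 7.23e-07). DERL3, which moves misfolded proteins out of the endoplasmic reticulum, fell most among named members (3.64 against 23.1 CPM, log2FC -2.66 ± 0.16), with ATF6, a sensor of unfolded protein (121 against 239 CPM, log2FC -0.98 ± 0.05), the ubiquitin ligase SYVN1 (118 against 241 CPM, log2FC -1.03 ± 0.05) and the mannosidase EDEM1 (173 against 356 CPM, log2FC -1.04 ± 0.06). Of the 33 members tested, 1 rose and 27 fell (median log2FC -0.65; 2 and 25 with totals, 0 and 23 with all 25), and 0 rose and 10 fell at least 2-fold. Counting heat shock and metal response together, 12 of 17 tested members rose and 2 fell (median log2FC 0.29; 15 and 1 with totals, 7 and 1 with all 25). The metallothioneins themselves were not analysed here. HSPA8, the constitutive HSP70, had 5373, 4824, 4203, 4588 and 5619 CPM in the 5 TrogGW libraries, against 2275, 1899.7, 2038, 2248 and 2200.1 CPM in the 5 Trog libraries. The groups did not overlap (log2FC 1.21 ± 0.09, edgeR adjusted p = 1.77e-08). The cochaperones DNAJB1 (244 against 77.9 CPM, log2FC 1.65 ± 0.10) and DNAJA1 (202 against 104 CPM, log2FC 0.96 ± 0.06) and the HSP110 gene HSPH1 (251.96 against 121 CPM, log2FC 1.05 ± 0.12) rose, while HSF1, the factor that drives them, fell (104 against 141 CPM, log2FC -0.44 ± 0.05).

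Several antioxidant genes were higher with GW9662. GCLC, the catalytic subunit of the enzyme that limits glutathione synthesis, had 345, 416, 471, 383 and 414 CPM in the 5 TrogGW libraries, against 122, 116, 115, 109 and 118 CPM in the 5 Trog libraries. All TrogGW values were higher (log2FC 1.81 ± 0.07, edgeR adjusted p = 5.02e-11), and Trog itself was above the 23.6 CPM in TGFb and 44.4 CPM in FB. SQSTM1, the autophagy receptor p62, had 5402, 7499, 8728, 8195 and 6903 CPM in the 5 TrogGW libraries, against 2129.9, 2354, 2238, 2062 and 2242 CPM in the 5 Trog libraries. Its rise (log2FC 1.74 ± 0.11, edgeR adjusted p = 4.13e-09) placed it among the 6 genes named for their gain in CPM. TXNRD1, thioredoxin reductase (914 against 445 CPM, log2FC 1.04 ± 0.07), BLVRB, biliverdin reductase B (129 against 75.4 CPM, log2FC 0.77 ± 0.08), FTH1, the ferritin heavy chain (18317 against 12626 CPM, log2FC 0.54 ± 0.08), and GSTM3, a glutathione transferase (2021 against 546 CPM, log2FC 1.89 ± 0.15), rose. TXNIP, which binds thioredoxin (109 against 176 CPM, log2FC -0.69 ± 0.09), and the exporter ABCC1 (89.9 against 128 CPM, log2FC -0.51 ± 0.07) fell. In the NRF2 list 10 of 22 tested members rose and 6 fell (median log2FC 0.09; 6 and 4 with all 25). In the larger glutathione list 6 of 25 tested members rose and 14 fell (median log2FC -0.22; 8 and 9 with totals, 5 and 7 with all 25): GPX4 (99.2 against 164 CPM, log2FC -0.73 ± 0.08, not called with all 25 libraries), GPX8 (22.1 against 43.8 CPM, log2FC -0.99 ± 0.08), PRDX4, a peroxidase of the endoplasmic reticulum (44.6 against 108 CPM, log2FC -1.28 ± 0.12), and MGST1 (82.1 against 125 CPM, log2FC -0.61 ± 0.07, not called with all 25 libraries) fell and GSTO2 rose (4.69 against 1.36 CPM, log2FC 1.78 ± 0.18). Family members such as the GSTM and FTH genes have close copies between which reads could be split.

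Targets of the aryl hydrocarbon receptor were measured with other enzymes of drug and vitamin metabolism. CYP1A1, the best known target of that receptor, had 10.6, 8.36, 7.02, 9.04 and 6.18 CPM in the 5 TrogGW libraries, against 5.37, 7.802, 13.96, 7.70 and 6.21 CPM in the 5 Trog libraries. The ranges overlapped, and no difference passed the threshold (log2FC 0.00 ± 0.22, edgeR adjusted p = 0.986). CYP24A1, which inactivates vitamin D, had 24.5, 35.3, 35.8, 33.0 and 35.3 CPM in the 5 TrogGW libraries, against 0.650, 0.341, 0.824, 0.473 and 0.871 CPM in the 5 Trog libraries. It was 52.3-fold higher, with a log2FC of 5.71 ± 0.18 (SE; edgeR, adjusted p = 4.33e-12). CYP27B1, which makes the active vitamin (1.77 against 0.145 CPM, log2FC 3.56 ± 0.30), CYP26B1, which clears retinoic acid (3.96 against 0.604 CPM, log2FC 2.72 ± 0.31), and the sulfotransferase SULT1C4 (5.77 against 1.80 CPM, log2FC 1.68 ± 0.17) rose as well, each at a low level, and CYP4B1 (11.4 against 20.6 CPM, log2FC -0.85 ± 0.12) fell. Of the 18 members tested, 11 rose and 2 fell (median log2FC 0.42; 10 and 1 with all 25).

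The integrated stress response was split, with 29.0% of tested members that rose and 41.9% that fell, against 35.7% and 34.4% of all genes tested. CHAC1, which degrades glutathione (207 against 77.6 CPM, log2FC 1.42 ± 0.10), and ATF3, a stress-induced transcription factor (344 against 125 CPM, log2FC 1.46 ± 0.13), rose. TRIB3, a pseudokinase (202 against 403 CPM, log2FC -0.99 ± 0.11), NUPR1 (104.7 against 272 CPM, log2FC -1.38 ± 0.07), SHMT2 of mitochondrial one-carbon metabolism (163 against 317 CPM, log2FC -0.96 ± 0.06) and STC2 (39.9 against 63.3 CPM, log2FC -0.67 ± 0.08) fell. Of that list 9 of 31 tested members rose and 13 fell (median log2FC -0.11; 14 and 13 with totals, 5 and 10 with all 25). Lysosomal genes were mostly lower, since 9 of 47 tested members rose and 32 fell (median log2FC -0.44). GPNMB (108 against 267 CPM, log2FC -1.31 ± 0.07), the cholesterol exporter NPC1 (274 against 565 CPM, log2FC -1.04 ± 0.06), the membrane protein LAMP1 (241 against 483 CPM, log2FC -1.01 ± 0.06) and cathepsin Z, CTSZ (34.8 against 70.1 CPM, log2FC -1.01 ± 0.06), fell, and ATG9A, the scramblase of autophagy, rose (154 against 111 CPM, log2FC 0.46 ± 0.04, not called with all 25 libraries). In the proteasome 15 of 35 tested members rose and 4 fell (median log2FC 0.08; 28 and 1 with totals, 4 and 1 with all 25), none by 2-fold. The ATPase subunits PSMC3 (159 against 114 CPM, log2FC 0.48 ± 0.05, not called with all 25 libraries) and PSMC5 (136 against 98.8 CPM, log2FC 0.46 ± 0.05, not called with all 25 libraries) rose, and NFE2L1, the factor that drives proteasome genes, fell (2239.7 against 3282 CPM, log2FC -0.55 ± 0.09). In the cytosolic ribosome 0 of 27 tested members rose and 27 fell (median log2FC -0.35; 0 and 16 with totals, 0 and 3 with all 25). RPL3 had 388, 288, 259, 287 and 332 CPM in the 5 TrogGW libraries, against 787, 876, 825, 792 and 880.2 CPM in the 5 Trog libraries. It fell by more than other members named (log2FC -1.42 ± 0.09, edgeR adjusted p = 5.49e-09), followed by RPL12 (349 against 746 CPM, log2FC -1.09 ± 0.08) and RPL10A (308 against 524 CPM, log2FC -0.77 ± 0.07). Ribosomal proteins have many processed copies in a genome, and reads could be split between them. Of translation factors and tRNA synthetases, 5 of 37 tested members rose and 24 fell (median log2FC -0.24; 6 and 14 with totals, 1 and 14 with all 25). MARS1 (105.4 against 170.1 CPM, log2FC -0.69 ± 0.06) and CARS1 (106 against 188 CPM, log2FC -0.83 ± 0.07), which charge methionine and cysteine tRNAs, fell, and EIF4E, the cap-binding factor, rose (71.9 against 53.4 CPM, log2FC 0.43 ± 0.05).

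Genes of the cell cycle were higher, from low levels. CCNE2, cyclin E2, had 20.6, 22.5, 20.2, 23.1 and 29.1 CPM in the 5 TrogGW libraries, against 1.63, 1.66, 1.34, 1.70 and 1.57 CPM in the 5 Trog libraries. Its rise (log2FC 3.86 ± 0.13, edgeR adjusted p = 7.46e-12) had no overlap between the groups. RRM2, of ribonucleotide reductase (6.28 against 1.55 CPM, log2FC 2.02 ± 0.18), CDC45 of the replicative helicase (2.98 against 0.857 CPM, log2FC 1.79 ± 0.15) and POLE, a replicative polymerase (24.5 against 13.1 CPM, log2FC 0.90 ± 0.10), rose, and MCM3, another helicase subunit, fell (23.7 against 70.8 CPM, log2FC -1.58 ± 0.14). Of the 33 members tested, 21 rose and 5 fell (median log2FC 0.33). Of genes of mitosis and the phase before it, 21 of 33 tested members rose and 2 fell (median log2FC 0.76; 24 and 1 with totals, 24 and 1 with all 25), and 13 rose and 0 fell at least 2-fold. TOP2A, topoisomerase II, had 9.75 ± 1.30 CPM in TrogGW and 4.01 ± 0.578 CPM in Trog, and 16.3 CPM in TGFb and 69.6 CPM in FB. PRC1, a crosslinker of the spindle midzone (16.2 against 6.86 CPM, log2FC 1.24 ± 0.10), the kinase AURKA (4.58 against 1.43 CPM, log2FC 1.68 ± 0.16) and the kinetochore gene CENPK (4.98 against 2.13 CPM, log2FC 1.22 ± 0.13) rose too, and TPX2 fell (27.1 against 39.5 CPM, log2FC -0.54 ± 0.08). The RRM2 level in TrogGW was well under that of untreated cells, with 3.43 CPM in TGFb and 109 CPM in FB. Among genes of p53, cycle arrest and apoptosis 10 of 32 tested members rose and 13 fell (median log2FC 0.04; 16 and 10 with totals). CDKN1C, the cycle inhibitor p57, had 26.4, 57.3, 77.2, 63.7 and 45.5 CPM in the 5 TrogGW libraries, against 1.19, 2.05, 1.18, 1.37 and 1.68 CPM in the 5 Trog libraries. It was 35.9-fold higher (log2FC 5.17 ± 0.29, edgeR adjusted p = 1.19e-09). GADD45B rose as well (131 against 13.2 CPM, log2FC 3.31 ± 0.16), while the apoptosis gene BAX (37.4 against 79.3 CPM, log2FC -1.09 ± 0.06), RRM2B (158 against 328 CPM, log2FC -1.05 ± 0.06), ZMAT3 (57.8 against 104.9 CPM, log2FC -0.86 ± 0.06) and BCL6 (130.2 against 269 CPM, log2FC -1.05 ± 0.08) fell.

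Interferon genes were divided, with 45.2% that rose and 32.3% that fell, against 35.7% and 34.4% of all genes tested. Most inflammatory genes that changed fell. IRF7, a master factor of the interferon response, rose (8.85 against 0.642 CPM, log2FC 3.78 ± 0.34), as did ISG15, a ubiquitin-like modifier (6.40 against 0.930 CPM, log2FC 2.79 ± 0.22), the antiviral GTPase MX1 (43.7 against 16.1 CPM, log2FC 1.44 ± 0.13) and HERC5 (116 against 79.8 CPM, log2FC 0.53 ± 0.06). IRF1, a transcription factor of the same family as IRF7, fell (47.2 against 106 CPM, log2FC -1.17 ± 0.10). Of the interferon list 14 of 31 tested members rose and 10 fell (median log2FC 0.04; 16 and 6 with totals). C1S, a serine protease of the complement pathway, had 49.7, 31.0, 24.3, 26.1 and 33.7 CPM in the 5 TrogGW libraries, against 293, 277, 309.7, 264 and 251 CPM in the 5 Trog libraries. It was lower in every TrogGW library (log2FC -3.08 ± 0.15, edgeR adjusted p = 2.99e-10). IL33, an alarmin, had 0.294 ± 0.134 CPM in TrogGW and 4.47 ± 1.01 CPM in Trog (log2FC -3.87 ± 0.26, edgeR adjusted p = 5.66e-09), and its level had been 97.3 CPM in TGFb and 74.9 CPM in FB. The chemokine CXCL16 (70.4 against 215 CPM, log2FC -1.61 ± 0.11) and RELB, an NF-kB subunit (46.3 against 99.2 CPM, log2FC -1.10 ± 0.08), fell. IL11, a profibrotic cytokine of the IL-6 family (28.4 against 4.93 CPM, log2FC 2.52 ± 0.18), and ACKR3, a scavenging chemokine receptor (24.1 against 6.64 CPM, log2FC 1.8501 ± 0.13), rose. Of the 37 members tested, 7 rose and 20 fell (median log2FC -0.22). PYCARD, the inflammasome adaptor ASC, was among the 12 largest falls (1.35 against 10.4 CPM, log2FC -2.95 ± 0.13).

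Growth factor and developmental signalling genes moved both ways. FGF1 had 1.997, 1.41, 1.11, 1.19 and 2.26 CPM in the 5 TrogGW libraries, against 18.4, 26.3, 19.1, 18.7 and 18.3 CPM in the 5 Trog libraries. It was lower in TrogGW (log2FC -3.67 ± 0.17, edgeR adjusted p = 1.78e-10), while FGF9 rose (5.31 against 0.728 CPM, log2FC 2.86 ± 0.22). IGF2 had 45.2, 85.4, 104.6, 90.5 and 76.2 CPM in the 5 TrogGW libraries, against 7.15, 7.90, 10.5, 8.51 and 7.25 CPM in the 5 Trog libraries. This growth factor rose (log2FC 3.28 ± 0.19, edgeR adjusted p = 1.65e-09), and IGFBP4, which binds it, fell (112 against 477 CPM, log2FC -2.09 ± 0.11). ETV5 (174 against 76.1 CPM, log2FC 1.19 ± 0.06) and SPRED1 (163 against 85.4 CPM, log2FC 0.94 ± 0.06), both induced by ERK signalling, rose. In the list of growth factors and receptors 21 of 45 tested members rose and 21 fell (median log2FC 0.17). In the Wnt pathway 15 of 26 tested members rose and 9 fell (median log2FC 0.39). TCF7, a transcription factor of the pathway, rose (60.8 against 14.8 CPM, log2FC 2.04 ± 0.11) with WNT5A (21.3 against 12.2 CPM, log2FC 0.80 ± 0.09), WNT2B (1.24 against 0.140 CPM, log2FC 3.05 ± 0.39) and the receptor FZD3 (7.74 against 3.72 CPM, log2FC 1.06 ± 0.12), and FZD1 (55.2 against 102 CPM, log2FC -0.89 ± 0.06) and LRP5 (72.0 against 107 CPM, log2FC -0.57 ± 0.06) fell. Among hypoxia and angiogenic genes 10 of 22 tested members rose and 10 fell (median log2FC -0.14; 6 and 8 with all 25). HIF1A, the oxygen-regulated transcription factor, had 409 ± 36.3 CPM in TrogGW and 916 ± 54.4 CPM in Trog (log2FC -1.16 ± 0.07, edgeR adjusted p = 2.37e-09). VEGFB (19.2 against 44.8 CPM, log2FC -1.22 ± 0.08) and ANGPT2 (1.65 against 12.9 CPM, log2FC -2.96 ± 0.19) fell. PGF (7.43 against 2.0003 CPM, log2FC 1.88 ± 0.18), STC1 (13.4 against 4.20 CPM, log2FC 1.67 ± 0.19) and NDRG1 (702 against 485 CPM, log2FC 0.53 ± 0.07) rose.

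Guidance molecules, channels and transporters completed the lists. EFNB2, ephrin-B2 (83.6 against 16.8 CPM, log2FC 2.31 ± 0.11), its receptors EPHB2 (8.58 against 0.542 CPM, log2FC 3.95 ± 0.24) and EPHB3 (42.8 against 20.5 CPM, log2FC 1.07 ± 0.07), and SEMA6D (7.62 against 2.50 CPM, log2FC 1.61 ± 0.13) rose. NRP2 (157 against 361 CPM, log2FC -1.20 ± 0.10) and SEMA3B (8.75 against 19.7 CPM, log2FC -1.18 ± 0.10) fell. In the axon guidance list 14 of 32 tested members rose and 13 fell (median log2FC 0.07). These shares, 43.8% and 40.6%, stand against 35.7% and 34.4% of all genes tested. SCN3A, a neuronal sodium channel (3.34 against 0.177 CPM, log2FC 4.20 ± 0.25), and the potassium channel KCNK5 (46.0 against 16.9 CPM, log2FC 1.45 ± 0.10) rose. KCNMB1, the smooth muscle subunit of the BK channel (6.07 against 30.5 CPM, log2FC -2.33 ± 0.17), CACNA1A (48.1 against 180.4 CPM, log2FC -1.91 ± 0.22), CACNA1D (1.92 against 5.28 CPM, log2FC -1.46 ± 0.15) and SCN4B (0.144 against 1.87 CPM, log2FC -3.63 ± 0.38) fell. Of ion channels 8 of 27 tested members rose and 11 fell (median log2FC -0.15; 9 and 7 with totals, 5 and 8 with all 25). ABCA8 had 5.45, 1.88, 1.16, 1.36 and 2.63 CPM in the 5 TrogGW libraries, against 45.0, 37.8, 51.2, 44.7 and 30.2 CPM in the 5 Trog libraries. This lipid transporter fell (log2FC -4.07 ± 0.27, edgeR adjusted p = 6.67e-09) with its paralog ABCA9 (19.98 against 126 CPM, log2FC -2.65 ± 0.10), and of ABC transporters 2 of 25 tested members rose and 9 fell (median log2FC -0.18; 6 and 8 with totals). Of amino acid transporters 9 of 22 tested members rose and 8 fell (median log2FC 0.05; 6 and 4 with all 25). SLC6A6, the taurine carrier (125 against 59.8 CPM, log2FC 1.07 ± 0.11), SLC1A1, a glutamate carrier (14.6 against 6.84 CPM, log2FC 1.09 ± 0.15), and SLC38A2 (1469 against 1149 CPM, log2FC 0.35 ± 0.06) rose. SLC1A4 (66.2 against 158 CPM, log2FC -1.26 ± 0.07) and SLC38A5 (244 against 421 CPM, log2FC -0.79 ± 0.06) fell.

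**Figure D4:**
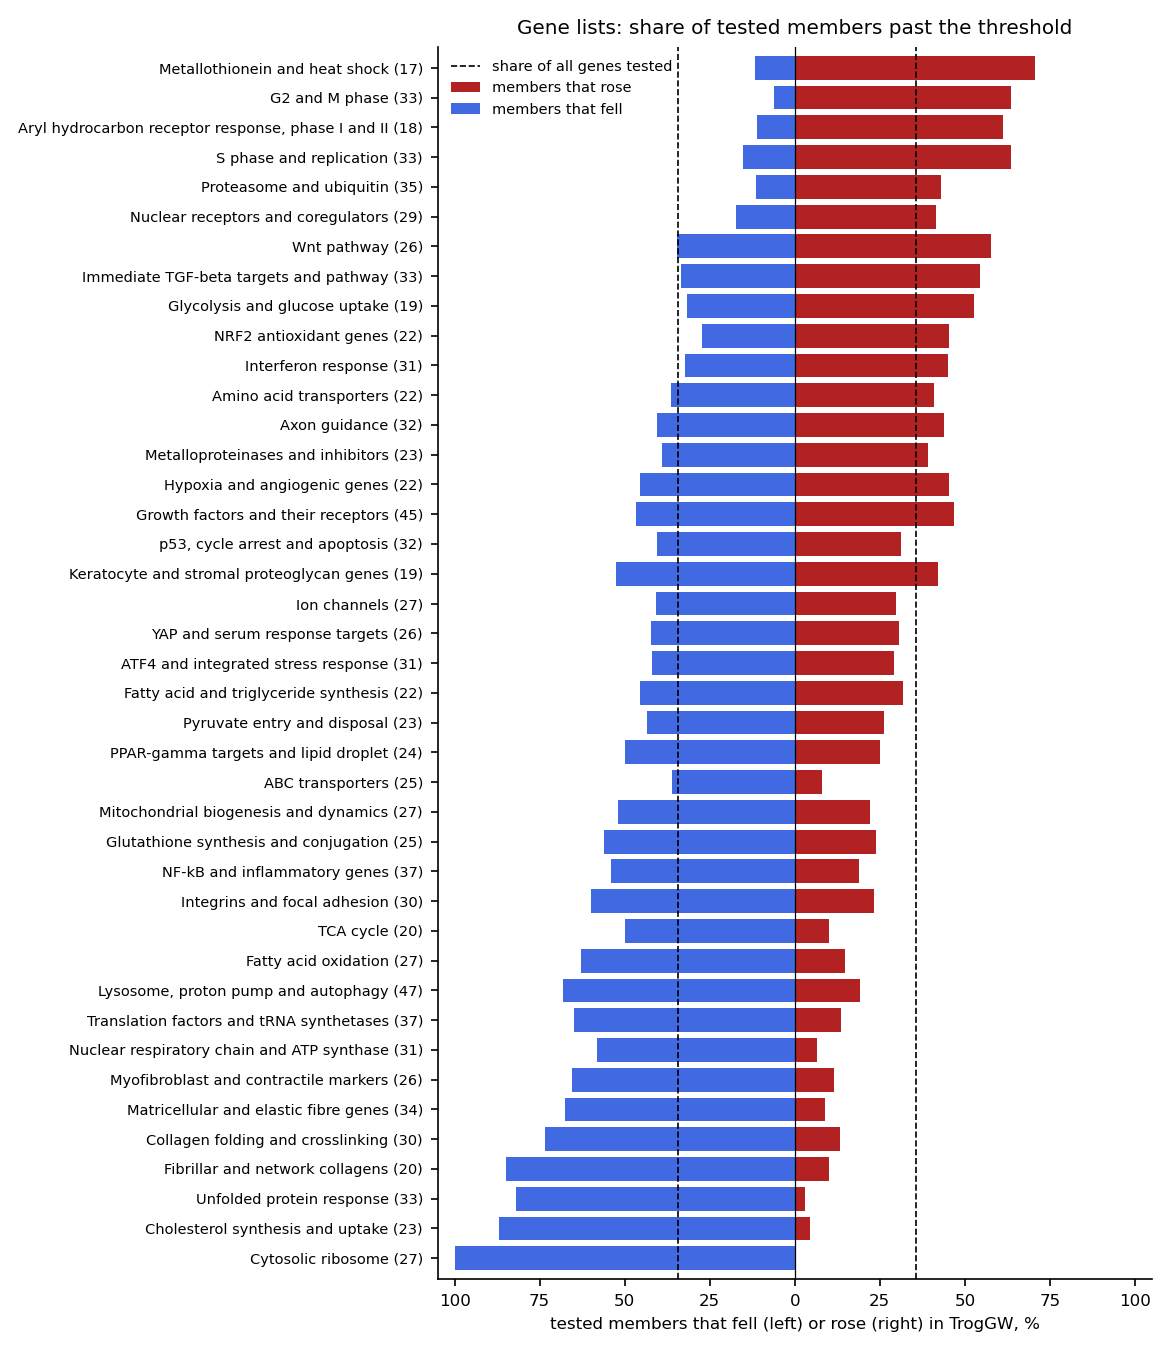
Each row is 1 of 41 gene lists, with the number of tested members in brackets; bars show the percentage of those members that fell (left, blue) and rose (right, red) in TrogGW relative to Trog, and dashed lines mark the shares of all genes tested, 34.4% that fell and 35.7% that rose. Ribosomal, sterol, endoplasmic reticulum and collagen lists lie at the bottom with most members lower, and heat shock and cell cycle lists lie at the top with most members higher.

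The highest log2FC of the named genes was that of NEFM. This medium neurofilament chain of axons had 318, 438, 402, 395 and 617 CPM in the 5 TrogGW libraries, against 0.596, 0.390, 0.412, 0.425 and 0.116 CPM in the 5 Trog libraries. It was 1088-fold higher in TrogGW (log2FC 10.09 ± 0.25, edgeR adjusted p = 4.46e-13), and its level was 8.09 CPM in TGFb and 6.08 CPM in FB. MAP2, a microtubule protein of dendrites, had 281, 292, 297, 296 and 265 CPM in the 5 TrogGW libraries, against 76.7, 66.3, 70.5, 69.0 and 68.7 CPM in the 5 Trog libraries. It also rose without overlap (log2FC 2.03 ± 0.05, edgeR adjusted p = 8.23e-13). The markers of neurons summed to 631 to 929 CPM in TrogGW, against 80.4 to 90.2 CPM in Trog, and of the 5 tested 4 rose and 1 fell. ELAVL4 was at 0 in all 10 libraries, STMN2 had 1 count in TrogGW and 3 counts in Trog, and SNAP25 had 64 counts in TrogGW and 11 counts in Trog. The part of other cells in these rises was not tested. NPTX1, a secreted pentraxin of synapses (67.7 against 0.194 CPM, log2FC 8.38 ± 0.27), ARC, an immediate early gene of synapses (73.3 against 0.322 CPM, log2FC 7.81 ± 0.30), the neuropeptides GAL (73.1 against 0.760 CPM, log2FC 6.57 ± 0.34) and NMB (48.2 against 0.365 CPM, log2FC 7.03 ± 0.33), SLC6A3, the dopamine transporter (24.8 against 0.365 CPM, log2FC 6.08 ± 0.39), and the protocadherin PCDH17 (11.2 against 0.179 CPM, log2FC 5.94 ± 0.32) were among the 12 largest rises.

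PEG10, a gene derived from a retrotransposon and imprinted in human and mouse, had 143, 243, 302, 241 and 216 CPM in the 5 TrogGW libraries, against 0.705, 0.536, 0.464, 0.425 and 0.580 CPM in the 5 Trog libraries. It was 421-fold higher (log2FC 8.72 ± 0.24, edgeR adjusted p = 1.31e-12). TEX14, a component of the intercellular bridges of germ cells in mouse, had 1465, 2973, 3466, 3732 and 2282 CPM in the 5 TrogGW libraries, against 19.6, 12.1, 20.5, 15.4 and 16.4 CPM in the 5 Trog libraries. Its rise (log2FC 7.38 ± 0.27, edgeR adjusted p = 1.55e-11) was large both as a fold and in CPM. In the RefSeq table for assembly F.catus_Fca126_mat1.0, TEX14 overlaps 11 other loci that carry no gene name, so that its reads could belong in part to them. RGCC, a regulator of the cell cycle (18.4 against 0.185 CPM, log2FC 6.58 ± 0.24), and LRRC15, a membrane protein of activated fibroblasts (42.7 against 0.783 CPM, log2FC 5.75 ± 0.30), completed the 12 with CYP24A1. SPP1, the secreted phosphoprotein osteopontin, had 8213 ± 972 CPM in TrogGW and 2866 ± 429 CPM in Trog (log2FC 1.52 ± 0.11, edgeR adjusted p = 1.48e-08). Of the 12 largest falls, those not yet described were OSR2, a transcription factor of mesenchyme (2.37 against 31.9 CPM, log2FC -3.75 ± 0.12), SLC45A2, a transporter of pigment cells (1.61 against 23.7 CPM, log2FC -3.87 ± 0.18), and LIPG, endothelial lipase (17.8 against 137 CPM, log2FC -2.95 ± 0.20). The largest losses in CPM, beside FN1, HSPA5, HSP90B1 and MMP2, were those of LRP1, an endocytic receptor (4905 against 10881 CPM, log2FC -1.15 ± 0.17), and SERPINE2, protease nexin 1 (2544 against 8327 CPM, log2FC -1.71 ± 0.09).

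**Figure D5:**
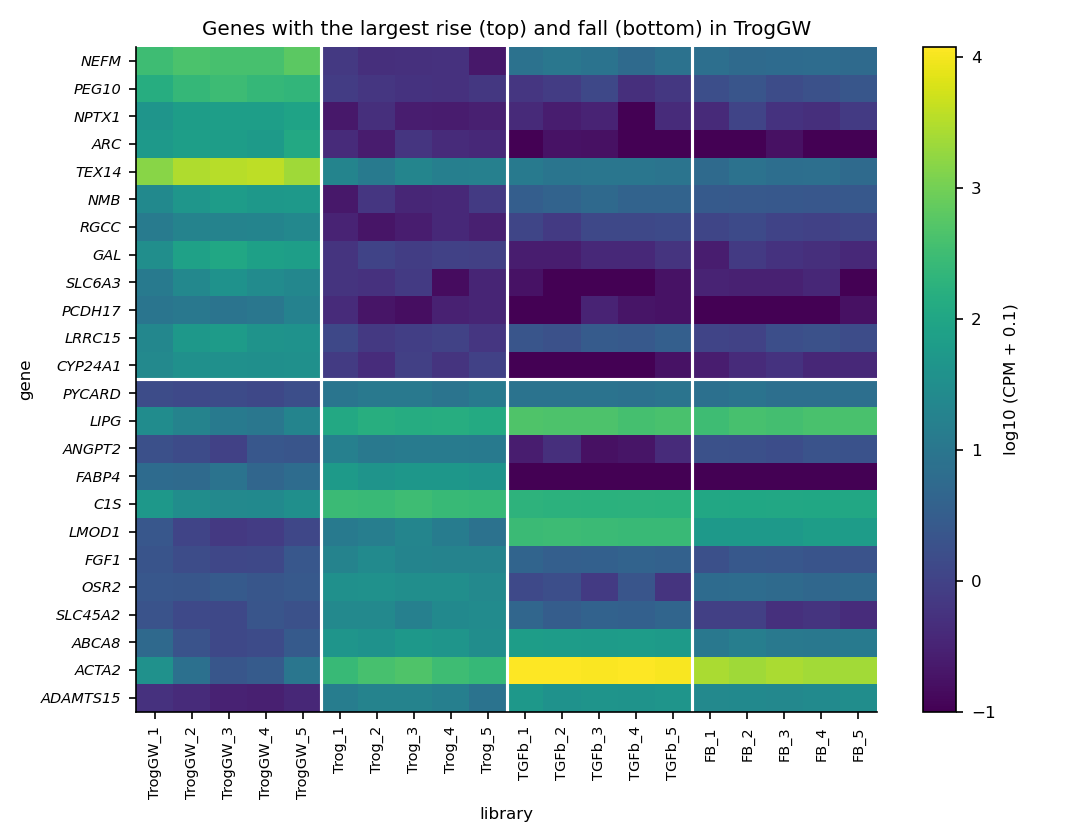
Colour gives log10 of the level in CPM plus 0.1 for the 12 genes with the largest rise (upper rows) and the 12 with the largest fall (lower rows) in TrogGW over Trog, across the 5 libraries each of TrogGW, Trog, TGFb and FB (columns). NEFM, PEG10, ARC and TEX14 are high in the TrogGW libraries, at 434, 229, 73.3 and 2784 CPM on average, against 0.388, 0.542, 0.321 and 16.8 CPM in Trog. The upper genes are low in TGFb and FB as well, though NEFM lay above its Trog level there.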

How the data were processed

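Poly(A) RNA libraries were made with a strand-marking kit from 200 ng of total RNA, per the labels' protocols, and the authors deposited whole-number counts per gene symbol for each library. fastp 0.23.1, STAR 2.7.9a, Subread 2.0.1 with featureCounts, and Salmon 1.5.2 are named in the submitters' processing notes; the genome build and the strand setting of counting are not given in the sources used here. Each file holds 13949 symbols, of which 12892 had a count in the 10 libraries and 13797 were found in the RefSeq table for assembly F.catus_Fca126_mat1.0, which was used for names and overlaps only. Of the genes named, 30 in that table overlap another gene with counts, and their reads could be shared.

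Groups were taken from the labels. The counts of TrogGW and Trog were fitted with edgeR 4.0.16 (quasi-likelihood F test, TMM scaling, 1 mean per group; R 4.3.3) on 10423 genes kept by a minimum count of 10 and a minimum total of 15, with Benjamini-Hochberg adjustment over all of them and a threshold of 0.05. The 2 groups were fitted alone because 1 library of another group is known to stand apart. CPM are counts per M counts of the TMM-scaled library, with TGFb and FB set on the same scale. On simulated counts for this comparison the fit called 92 of 99 genes changed 2-fold, 84 of 100 changed 1.5-fold and 11 of 9938 unchanged genes. The simulation used the fitted spread and changed few genes, whereas 70.2% of genes tested were called in the data. It therefore gives no error rate for a change this broad. Replicate numbers did not pair the libraries. Log2 CPM of libraries of 1 group correlated at 0.990 to 0.997 across genes, and no pair agreed within sampling noise. A floor of 3 counts per group stands for a level of 0, and counting intervals (95%, exact) cover counting error only. Depth was 17.6 to 22.6 M counts per library, so 1 count is about 0.05 CPM.

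Gene lists and members were chosen with earlier results of these data known. Genes were named by rule: the 12 highest and 12 lowest log2 fold changes among called genes whose higher group reached 10 CPM and whose groups did not overlap, the 6 largest gains and losses in CPM, 17 genes fixed by name, the called members with the lowest p in each list (4 in its commoner direction, 2 in the other), and the markers with the highest CPM. PAX6 and EPCAM were named after their values were seen. Some genes that the rule names are not reported here. CD36, ADIPOQ and the epithelial, immune and other markers at or near 0 were named for their role after their values were seen. ELAVL3, SYP and IGFBP3 were named in the same way, and are not in the counts of overlapping genes and flagged groups. Alternatives were other scalings (including DESeq2 1.42.0 and limma 3.58.1 voom), filters, samples, the replicate block and a test against a 1.5-fold change.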

Additional observations from a re-analysis of the deposited data

Results flagged for a closer look

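The values below come from libraries whose gap to the nearest other library of their group exceeded Dixon's 95% critical value of 0.71, read over the genes named in the text with more than 3 counts in the group. Of the 533 groups of 5 values examined, 45 exceeded it (8.44%), of which 28 were in TrogGW and 17 in Trog, and chance gives about 1 in 20. TrogGW replicate 1 accounted for 16 of them.

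TrogGW replicate 1 was the highest of its group for several matrix and contractile genes. It had 37.5 CPM of ACTA2, 1050 CPM of COL1A2, 379 CPM of VCAN, 3162 CPM of SERPINE2 and 98.1 CPM of CRTAP. It was also the highest for ACADL at 22.6 CPM, ATF3 at 445 CPM, CACNA1A at 86.6 CPM and SLC1A4 at 80.7 CPM, and its 10 highest genes took 9.35% of its counts. The same library was the lowest of its group for ADAMTS1 at 201 CPM, ADAMTS4 at 26.4 CPM, ALDOC at 44.5 CPM, CYP24A1 at 24.5 CPM, ISG15 at 3.60 CPM and RRM2 at 4.14 CPM. For ACADL, ACTA2, ATF3, CRTAP, CYP24A1, ISG15, RRM2 and VCAN, at least, it still lay on the same side of every Trog library as the rest of TrogGW.

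TrogGW replicate 5 was the highest of its group for the immediate early genes ARC at 116 CPM, EGR3 at 22.1 CPM and FOSB at 43.4 CPM, and for ID2 at 123 CPM, PCDH17 at 17.5 CPM and PGF at 10.6 CPM. TrogGW replicate 4 had the highest IL33 at 0.527 CPM and POLE at 29.8 CPM and the lowest MMP11 at 9.04 CPM. SPP1 was highest in TrogGW replicate 3 at 9924 CPM, where RPL10A was lowest at 279 CPM, and SLC38A2 was lowest in TrogGW replicate 2 at 1386 CPM.

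Trog replicate 2 was the highest of its group for genes of the integrated stress response, namely TRIB3 at 550.7 CPM, NUPR1 at 314 CPM and CHAC1 at 98.4 CPM, and for PCK2 at 187 CPM, FGF1 at 26.3 CPM, KLF15 at 26.9 CPM and NPTX1 at 0.390 CPM. Trog replicate 1 had the highest FABP5 at 221 CPM, ACADL at 41.1 CPM and NR1H3 at 7.48 CPM. Trog replicate 3 had the highest CYP1A1 at 13.96 CPM, ENO3 at 15.6 CPM, LUM at 427 CPM and RRM2B at 372 CPM. KCNK5 was highest in Trog replicate 5 at 20.5 CPM, where HIF1A was lowest at 821 CPM, and FZD3 was lowest in Trog replicate 4 at 2.84 CPM.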

How the results depend on the processing

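The number of genes called lay between 7008 and 7949 under other scalings, filters, DESeq2, voom and 24 libraries, and between 7010 and 7489 with each library left out in turn, against 7312 as reported. In none of these was a gene called in the opposite direction. With all 25 libraries in 1 fit, 4620 were called (2438 rose, 2182 fell), 14 of the named genes lost their call, and this fit includes the library of another group that stands apart; leaving it out gave 7735. A test against a 1.5-fold change called 2071 (1242 rose, 829 fell). Scaling by library totals left 2374 genes lower, and without a filter 1543 rose at least 2-fold. Directions near 0 turned: CYP1A1 to -7.35e-06 with RLE size factors, -0.0083 with no filter, -0.00549 with DESeq2, -0.00232 with 24 libraries and between -0.118 and 0.276 with a library left out; PDK4 to 0.062 and U6 to 0.16 with library totals, U6 to 0.0685 with upper quartile scaling and 0.00306 with a stricter filter. With a library left out U6 lay between -0.0739 and 0.0677, MPC1 between -0.00841 and 0.0789 and RXRA between -0.00526 and 0.0562. COL1A1 passed the threshold without a filter (-0.48), with voom (-0.51), with 24 libraries (-0.48) and without Trog replicate 1 (-0.58), and EPCAM with library totals (0.64), upper quartile scaling (0.55), 24 libraries (0.47) and without Trog replicate 3 (0.63). The cause of these moves was not tested. Depth limits the low genes, where few counts stand behind a value.

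The replicate numbers shared by the groups did not pair the libraries, since deviations of same-numbered libraries correlated at -0.08 to 0.09. With the replicate block, 7182 genes were called (3663 rose, 3519 fell), 7099 of them in both fits in the same direction, and EPCAM passed the threshold (0.48).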

Other observations

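Some genes outside the naming rule were chosen after their values were seen, and are given as values. MEST, imprinted in human and mouse, had 9.84, 14.6, 12.6, 13.0 and 13.7 CPM in the 5 TrogGW libraries, against 0.271, 0.341, 0.361, 0.473 and 0.232 CPM in the 5 Trog libraries (log2FC 5.2004 ± 0.18, edgeR adjusted p = 1.21e-11). It joined PEG10, IGF2 and CDKN1C, imprinted in the same species, all 3 of them higher in TrogGW, whereas GRB10 fell (134 against 221 CPM, log2FC -0.72 ± 0.05) and PLAGL1 rose (31.1 against 19.96 CPM, log2FC 0.64 ± 0.10, not called with all 25 libraries). NEFH, the heavy neurofilament chain, had 20.6, 25.8, 20.2, 19.8 and 35.6 CPM in the 5 TrogGW libraries, against 0.542, 0.439, 0.876, 0.803 and 1.10 CPM in the 5 Trog libraries (log2FC 5.02 ± 0.23, edgeR adjusted p = 1.7e-10). POLR2A, the large subunit of RNA polymerase II, had 554, 643, 664, 690.4 and 638 CPM in the 5 TrogGW libraries, against 160.0, 129, 153, 177 and 142 CPM in the 5 Trog libraries (log2FC 2.07 ± 0.08, edgeR adjusted p = 5.49e-11). KLF15, a PPAR-gamma target in adipocytes, fell (5.49 against 18.0 CPM, log2FC -1.71 ± 0.17). COL1A2, the partner chain of COL1A1 in collagen I, fell (409.9 against 1670.0 CPM, log2FC -2.03 ± 0.42; -2.74 without TrogGW replicate 1), with lumican, LUM (82.3 against 307 CPM, log2FC -1.90 ± 0.25), and periostin, POSTN (39.6 against 148 CPM, log2FC -1.90 ± 0.29).

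Rows for small noncoding RNA families, among them small nuclear and nucleolar RNAs, which have no poly(A) tail in their mature form, took 0.0125% to 0.0218% of the counts in TrogGW and 0.00359% to 0.00513% in Trog, over 52 rows. The U3 row had 45.0, 92.5, 98.5, 100.4 and 65.8 CPM in the 5 TrogGW libraries, against 1.68, 2.10, 2.06, 1.42 and 1.74 CPM in the 5 Trog libraries (log2FC 5.48 ± 0.24, edgeR adjusted p = 1.05e-10). U2 (11.01 against 0.916 CPM, log2FC 3.57 ± 0.20), U5 (15.6 against 1.12 CPM, log2FC 3.78 ± 0.20) and U7 (11.2 against 0.5004 CPM, log2FC 4.45 ± 0.41) rose too, while U6 had 7.99 ± 1.43 CPM in TrogGW and 8.04 ± 0.497 CPM in Trog and did not pass the threshold (log2FC -0.00 ± 0.12, edgeR adjusted p = 0.977). Each such row pools or picks from many copies in a genome.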
